A study of Rattus norvegicus with 18 samples.

Results

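The miR-206/miR-133b cluster is a pair of muscle miRNA genes that lie next to each other, and each gives a 5p and a 3p mature strand. Its members were taken by name, as every row of the count table called miR-206 or miR-133b on either arm. This gave 4 of the 909 entries of the table, rno-miR-206-3p, rno-miR-206-5p, rno-miR-133b-3p and rno-miR-133b-5p. The counts come from small RNA sequencing of the gastrocnemius, a mixed-fibre calf muscle, in 18 male Brown Norway (BN) rats, with 1 library per rat. In the young AL group 6 rats were fed ad libitum and examined at 6 months of age (replicates 1 to 6). The old AL group held 6 rats fed ad libitum to 28 months (replicates 7 to 12), and the old CR group held 6 rats of 28 months under caloric restriction (CR), at 55% of the ad libitum intake (replicates 13 to 18). Diets were assigned at 2 months of age, and the labels name no transgene, nerve or muscle injury or further treatment, so that the comparisons concern age and diet. Whole muscle was used, in which fewer cells of a type and less RNA per cell cannot be told apart.

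miR-206 is made almost only in skeletal muscle. It is known as a miRNA of slow fibres that rises when a muscle loses its nerve, and it helps nerve endings to grow back onto the fibre, with the histone deacetylase HDAC4 among its targets. In satellite cells, the stem cells of muscle, it favours differentiation, in part by lowering Pax7. miR-133b belongs to the miR-133 family, which represses serum response factor and takes part in myoblast proliferation and differentiation, and in mouse and human its hairpin is embedded in linc-MD1, a long non-coding RNA of differentiating myoblasts.

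Of the 4 members, 3 had a mature sequence in the RefSeq table for the GRCr8 assembly, which holds 693 mature rat miRNAs, and none is printed for rno-miR-206-5p. The mature strands are shown because each main strand is close to a far more abundant muscle miRNA, so that a few bases decide where a read is counted. The seed, bases 2 to 8 from the 5′ end, is in capitals, and the relatives are placed below each member.
rno-miR-206-3p: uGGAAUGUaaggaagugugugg
rno-miR-1-3p: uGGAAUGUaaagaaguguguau
rno-miR-1b: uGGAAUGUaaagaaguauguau
rno-miR-133b-3p: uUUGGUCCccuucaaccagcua
rno-miR-133a-3p: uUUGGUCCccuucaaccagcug
rno-miR-133b-5p: gCUGGUCAaacggaaccaagu
The seed GGAAUGU was found in 3 of the 693 mature sequences, those of rno-miR-206-3p, rno-miR-1-3p and rno-miR-1b. Counted from 1 at the 5′ end, with the base of rno-miR-206-3p first, rno-miR-206-3p and rno-miR-1-3p differ at G11A, G21A and G22U and are identical at the other 19 of 22 bases. Against rno-miR-1b the differences are G11A, G17A, G21A and G22U. rno-miR-133b-3p shares its seed UUGGUCC only with rno-miR-133a-3p in this table, and the 2 differ at the last base alone (A22G, with the base of rno-miR-133b-3p first). The seed CUGGUCA of rno-miR-133b-5p occurred in no other mature sequence of the table.

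Both hairpins lie on the plus strand of chromosome 9 of GRCr8. They are printed to show where the counted arms sit, with the arms listed in RefSeq in capitals. Mir206 spans chr9:30590697-30590780 and lists 1 arm, on the 3′ side, and Mir133b spans chr9:30594582-30594665 and lists both arms.
Mir206: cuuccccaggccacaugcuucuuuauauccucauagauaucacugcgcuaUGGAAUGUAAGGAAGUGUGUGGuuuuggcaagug
Mir133b: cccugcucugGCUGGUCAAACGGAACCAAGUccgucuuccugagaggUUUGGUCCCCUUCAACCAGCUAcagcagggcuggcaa
Each hairpin is 84 nt long, and 3801 bases separate them. The annotation places both inside a long non-coding RNA gene, LOC120094648, with the protein-coding genes Pkhd1 before and Il17a after. The submitters' processing notes name the older Rnor_6.0 build, so these positions describe the RefSeq annotation and not the authors' alignment.

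The libraries held 34940346 to 83110905 counts. The miR-1 family was counted here as 1 predicted candidate and rno-miR-3571 beside rno-miR-1b and rno-miR-1-3p. The counts of the candidate matched those of another of these entries within 10% or 2 counts in every library. Reads may thus stand more than once in the share of the family and in the library totals. The family took 60.7% to 86.8% of the counts, with the lowest share in old AL replicate 7 and the highest in old AL replicate 11. The scaling factors of the trimmed mean of M-values (TMM), which correct for such composition, had their extremes in the same libraries, 2.14 in old AL replicate 7 and 0.639 in old AL replicate 11. None of the 6 striated muscle markers, which include the member rno-miR-206-3p, was at 0 in any library. Their summed level was 69877 to 186153 CPM (counts per 1000000 counts of the library, with its total multiplied by its TMM factor). The summed level of 5 leukocyte miRNAs was 604 CPM in old AL replicate 8 and 107 to 239 CPM in the other libraries. These levels and those below are CPM after TMM scaling over the 18 libraries, except where scaling over 12 libraries is named. With scaling over the 18 libraries, 0.0286 to 0.0898 CPM correspond to 3 counts, the limit that a count of 0 allows. Such limits and the intervals of shares cover counting error only.

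rno-miR-206-3p was one of the most abundant miRNAs of the muscle, at rank 4 to 20 among the 763 known entries of each library and with 159780 to 1884275 counts. In young AL its level was 5465, 6870, 4783, 13765, 10013 and 7657 CPM in replicates 1 to 6 (8092 ± 3329, SD, n = 6). In old AL it was 17986, 4321, 5329, 6924, 6891 and 8489 CPM in replicates 7 to 12 (8323 ± 4947, SD, n = 6). In old CR it was 15168, 4996, 8498, 5316, 5170 and 2909 CPM in replicates 13 to 18 (7010 ± 4380, SD, n = 6). The highest libraries of the 3 groups were replicates 4, 7 and 13, with 10013 CPM in replicate 5 next below replicate 4, and the groups overlapped over most of their range. The medians were 7263, 6907 and 5243 CPM in young AL, old AL and old CR, so that old AL had the highest mean and young AL the highest median. No neighbours in either order differed beyond the spread between libraries. As a share of all counts without TMM scaling, rno-miR-206-3p made up 0.355% to 3.85% of a library.

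rno-miR-133b-3p was less abundant and less variable, at rank 23 to 34 among known entries and with 54574 to 166096 counts. Its level in young AL was 2195, 1328, 2401, 1247, 1239 and 1838 CPM (1708 ± 512, SD, n = 6). In old AL it was 1538, 1641, 2546, 2338, 1314 and 1930 CPM (1885 ± 480, SD, n = 6). In old CR it was 2086, 2530, 2070, 1778, 1674 and 1112 CPM (1875 ± 478, SD, n = 6). The lowest and the highest library lay in old CR and old AL, respectively, and the ranges of the 3 groups coincided almost fully. The order of the means, old AL, old CR and young AL, rests on differences smaller than 1 SD. The library highest in rno-miR-206-3p in each group was not the library highest in rno-miR-133b-3p.

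**Figure D1:**
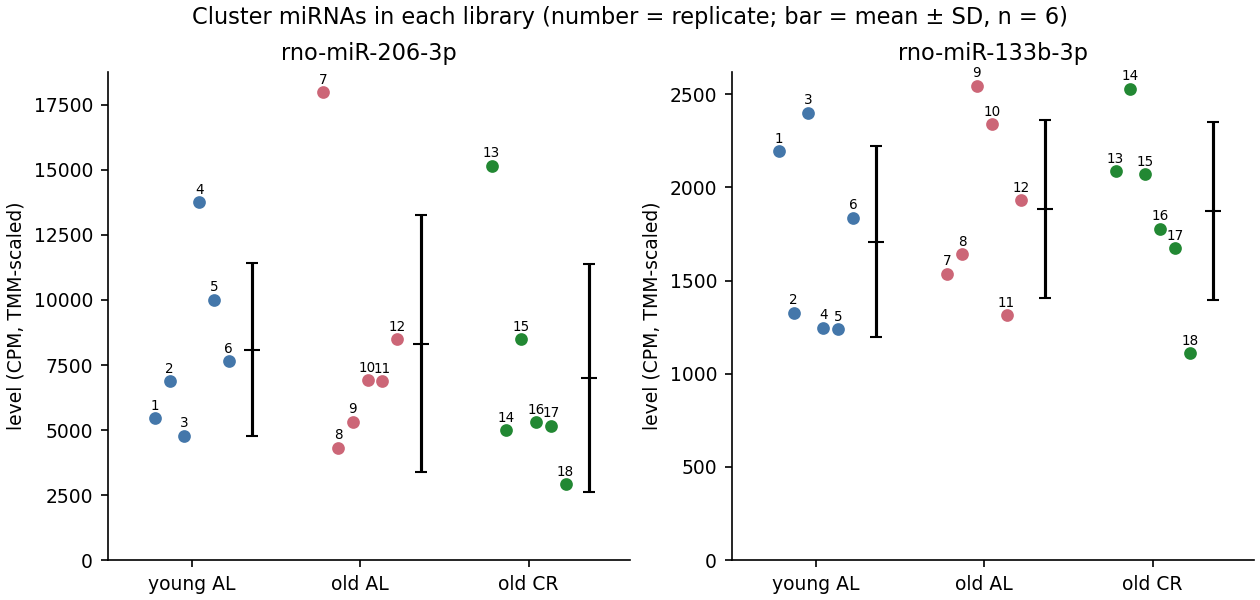
Level of rno-miR-206-3p (left) and rno-miR-133b-3p (right) in CPM after TMM scaling, on linear axes that start at 0, with 1 point per library numbered by replicate and bars for the mean ± SD of each group (n = 6). For rno-miR-206-3p replicates 4, 7 and 13 are the highest of their group at 13765, 17986 and 15168 CPM, and the groups overlap for both miRNAs.

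Both 5p strands were near or below the limit of detection. rno-miR-133b-5p had 1, 1, 1, 12, 1 and 12 counts in the young rats, 31, 4, 3, 7, 2 and 6 counts in the old AL rats, and 7, 10, 2, 4, 1 and 0 counts in the old CR rats, 105 counts in all. Several of these counts are at or below 3, and each group held at least 1 library with 7 or more. rno-miR-206-5p had 2 counts in the whole series, 1 each in old AL replicates 7 and 12, and 0 in the other 16 libraries, so that it fell under the minimum of 10 counts for testing. Of the counts of both miR-133b arms, 105 of 2022061 lay on the 5p strand, or 0.00519% (exact 95% binomial interval 0.00425% to 0.00629%). The 5p share was 0.00506% for young AL, 0.00661% for old AL and 0.00360% for old CR. For miR-206 the 5p strand gave 2 of 9079770 counts. By comparison, rno-miR-133a-5p, the 5p strand of the close relative of miR-133b, had 11608 to 33846 counts per library.

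Old AL was compared with young AL to ask whether the cluster differs with age under free feeding. An entry was called where edgeR's quasi-likelihood test gave a p of 0.05 or less after Benjamini-Hochberg adjustment and the groups differed by 1.5-fold or more. By this rule 0 of the 3 members tested were called, against 3.28% of the 732 entries tested (0.956% higher and 2.32% lower in old AL). At an unadjusted p under 0.05 the count was again 0 of 3 (23.4% of all entries), and DESeq2 called 0 (12.2% of all entries). No member separated the 2 groups without overlap, as 3.55% of all entries did, and the estimate was above 0 for 3 of 3 members (56.6% of all entries). The log2 fold change of rno-miR-206-3p was 0.04 (SE 0.345, adjusted p = 0.971), with a 95% interval from 0.610-fold to 1.73-fold. The estimate turned negative without old AL replicate 7 (-0.35) and without young AL replicates 1, 2 or 3 (-0.042, -0.0098 and -0.077). For rno-miR-133b-3p the log2 fold change was 0.14 (SE 0.241, adjusted p = 0.806), with an interval from 0.766-fold to 1.59-fold. rno-miR-133b-5p had a log2 fold change of 0.28 (SE 0.817, adjusted p = 0.909) and an interval on the log2 scale of -1.50 to 2.05, and without old AL replicate 7, which held 31 of the 53 old AL counts, it was -0.39. An age difference of 2-fold lies outside the intervals of both 3p strands, and one of 1.5-fold upwards lies inside them.

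Old CR was compared with young AL to ask how restricted old muscle differs from young muscle, with the same young libraries as controls. edgeR called 0 of the 3 members, against 9.32% of the 730 entries tested (4.11% higher and 5.21% lower in old CR). The estimate was above 0 for 1 of 3 members (55.8% of all entries). At an unadjusted p under 0.05 it found 0 of 3 (25.5% of all entries), DESeq2 called 0 (15.8% of all entries), and 0 members were without overlap between the groups (5.75% of all entries). rno-miR-206-3p had a log2 fold change of -0.21 (SE 0.383, adjusted p = 0.809), with an interval from 0.484-fold to 1.54-fold. It was -0.59 without old CR replicate 13, with an adjusted p of 0.263, the lowest of any alternative, and 0.011 without young AL replicate 4. rno-miR-133b-3p had a log2 fold change of 0.13 (SE 0.228, adjusted p = 0.806), with an interval from 0.776-fold to 1.54-fold, and with library totals in place of TMM it was -0.031. For rno-miR-133b-5p the value was -0.30 (SE 0.991, adjusted p = 0.909), and it turned positive without young AL replicate 4 (0.42) or 6 (0.047), the 2 young libraries with 12 counts.

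Old CR was compared with old AL to ask what restriction changed at the same age, with the same old AL libraries as in the first comparison. edgeR called 0 of the 3 members, against 0.272% of the 736 entries tested, a background of only 2 entries. The estimate was above 0 for 0 of 3 members (50.7% of all entries). At an unadjusted p under 0.05 the count was 0 of 3 (12% of all entries), DESeq2 called 0 (2.73% of all entries), and 0 members were without overlap (0.543% of all entries). The log2 fold change of rno-miR-206-3p was -0.24 (SE 0.423, adjusted p = 0.898), with an interval from 0.447-fold to 1.61-fold, and without old AL replicate 7 it was 0.13, whereas with library totals in place of TMM it was -0.85 (edgeR adjusted p = 0.628). rno-miR-133b-3p was nearly level between the groups, with a log2 fold change of -0.0015 (SE 0.213, adjusted p = 0.998) and an interval from 0.724-fold to 1.38-fold. Its sign changed without any 1 of 6 libraries (old AL replicates 9, 10 or 12 and old CR replicates 16, 17 or 18), up to 0.11. rno-miR-133b-5p had a log2 fold change of -0.58 (SE 0.831, adjusted p = 0.859), which became 0.068 without old AL replicate 7 and -1.42 with library totals.

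**Figure D2:**
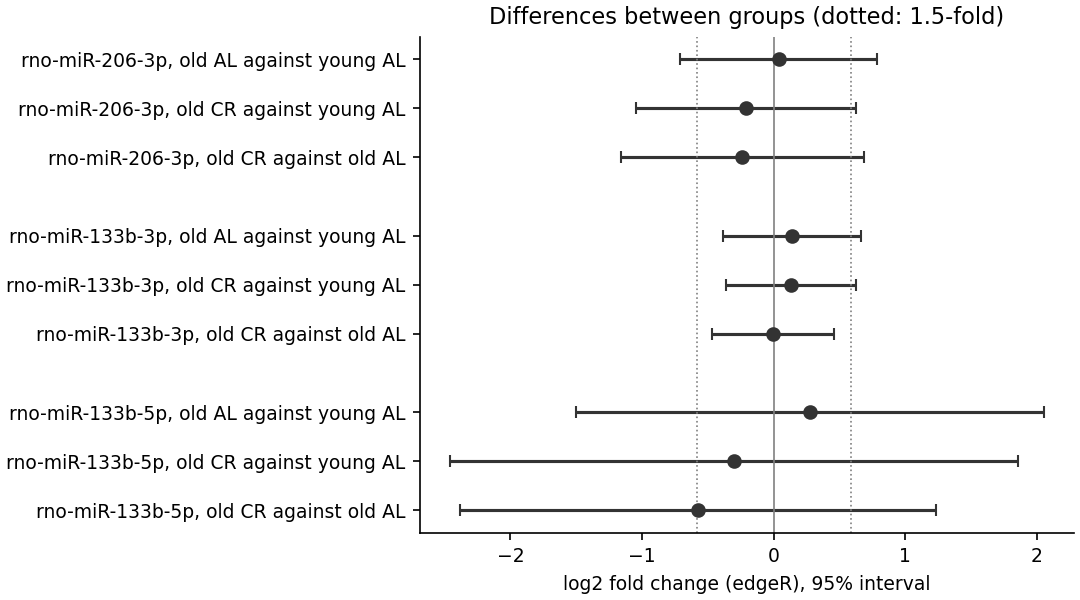
Log2 fold change from edgeR (points) with its 95% interval (bars) for the 3 tested members in the 3 comparisons, with a solid line at 0 and dotted lines at 1.5-fold in either direction. All 9 intervals cross 0, those of rno-miR-133b-3p are the narrowest and those of rno-miR-133b-5p, with 105 counts in all, the widest.

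Ratios within a library do not depend on scaling between libraries, and 5 of them were compared over the 3 pairs of groups with a two-sided exact permutation test of the mean log2 ratio. Over these 15 tests the lowest unadjusted p was 0.123 and the lowest adjusted p was 0.857. The first ratio sets the 2 main strands of the cluster against each other. rno-miR-206-3p exceeded rno-miR-133b-3p in every library, by 2.49, 5.17, 1.99, 11.0, 8.08 and 4.17 times in the young rats, by 11.7, 2.63, 2.09, 2.96, 5.24 and 4.40 times in old AL, and by 7.27, 1.97, 4.10, 2.99, 3.09 and 2.62 times in old CR. The ratio thus varied from 1.97 to 11.7 among rats, and the highest ratio of each group belonged to replicates 4, 7 and 13, the libraries highest in rno-miR-206-3p. The mean log2 ratio differed by -0.19 in old AL against young AL (SE 0.533, exact permutation p = 0.742, adjusted p = 0.857). In old CR it differed by -0.46 from young AL (SE 0.470, exact permutation p = 0.353) and by -0.27 from old AL (SE 0.450, exact permutation p = 0.550). Without old AL replicate 7 the last difference was 0.035, and without young AL replicate 4 the first was 0.066.

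The second ratio sets rno-miR-206-3p against rno-miR-1-3p, which has the same seed and is the muscle miRNA shared with the heart. In young AL rno-miR-206-3p had 4.98% to 13.0% of the counts of rno-miR-1-3p (median 8.23%), and in old CR 3.64% to 11.5% (median 5.00%). In old AL the share was 50.1% in replicate 7 and 5.64% to 8.99% in the other 5 libraries (median of all 6, 8.28%). Replicate 7 combined the highest level of rno-miR-206-3p in the series with the lowest level of rno-miR-1-3p, both after TMM scaling. There rno-miR-1-3p was at 35911 CPM, against 54968 to 151209 CPM in the other libraries. Without TMM scaling it was not the lowest, at 7.68% of the counts of replicate 7 and 7.06% to 11.4% over the 18 libraries. The share of rno-miR-206-3p, 3.85% in replicate 7, was still the highest. The mean log2 ratio of old AL was 0.28 above young AL (SE 0.535, exact permutation p = 0.736), and without old AL replicate 7 the difference was -0.18. Old CR lay below young AL by a difference of -0.51 (SE 0.389, exact permutation p = 0.223) and below old AL by -0.79 (SE 0.571, exact permutation p = 0.190), neither of which passed. Of all counts with the shared seed GGAAUGU, from rno-miR-206-3p, rno-miR-1-3p and rno-miR-1b together, rno-miR-206-3p gave a median of 2.64% in the young libraries, 1.99% in those of old AL and 1.60% in those of old CR, with 13.9% in old AL replicate 7.

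**Figure D3:**
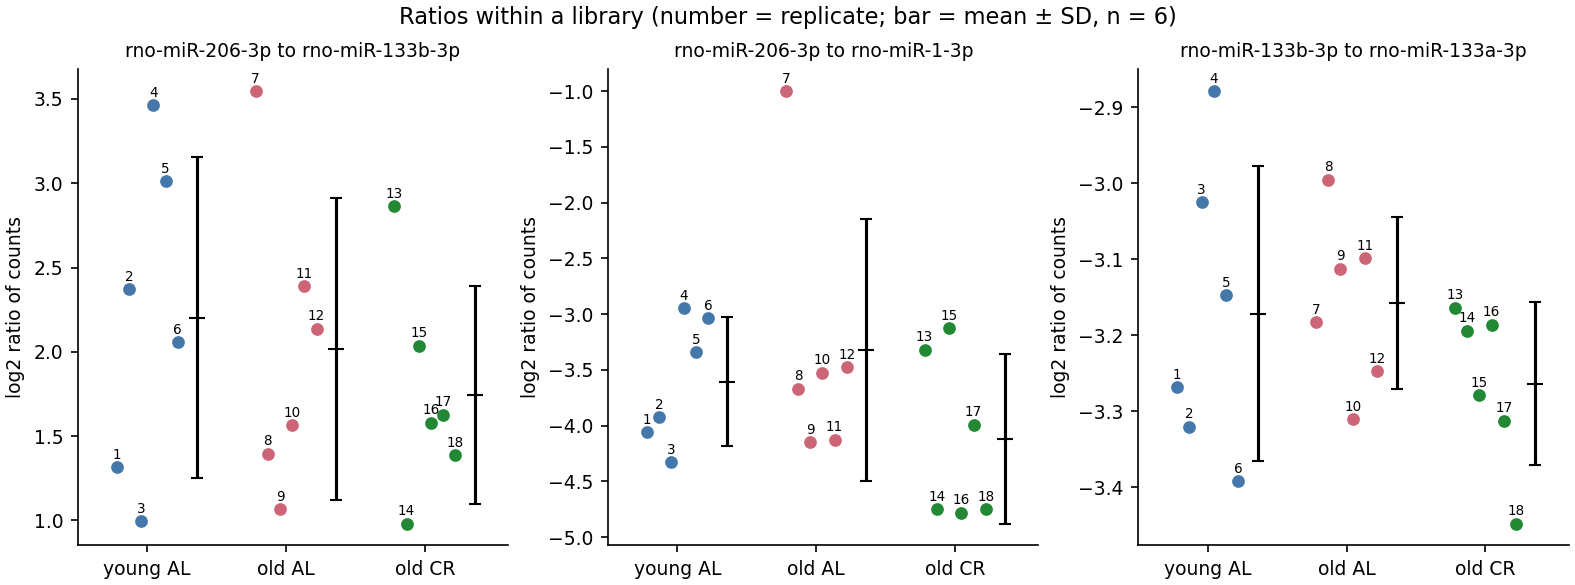
Log2 ratio of counts within each library for rno-miR-206-3p to rno-miR-133b-3p (left), rno-miR-206-3p to rno-miR-1-3p (middle) and rno-miR-133b-3p to rno-miR-133a-3p (right), numbered by replicate, with the mean ± SD of each group (n = 6) and a separate vertical scale in each panel. Old AL replicate 7 stands apart in the middle panel at -0.998, and the right panel covers less than 1 log2 unit over all libraries.

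The third ratio sets rno-miR-133b-3p against rno-miR-133a-3p, from which it differs by its last base. rno-miR-133b-3p had 9.17% to 13.6% of the counts of rno-miR-133a-3p, with a median of 10.8% for young AL, 11.3% for old AL and 10.6% for old CR. This was the steadiest of the 5 ratios, while the level of rno-miR-133a-3p itself varied from 9175 to 23202 CPM. The mean log2 ratio differed by 0.01 in old AL against young AL (SE 0.0917, exact permutation p = 0.879), and it was below 0 without young AL replicates 1, 2 or 6 or old AL replicate 8 (-0.0052, -0.016, -0.030 and -0.018). It differed by -0.09 in old CR against young AL (SE 0.0904, exact permutation p = 0.344) and by -0.11 in old CR against old AL (SE 0.0636, exact permutation p = 0.123). How reads that end before the last base were divided between the 2 entries is not given in the sources used here, and its part in this ratio was not tested. A further entry, rno-miR-133c, held 98.6% to 99.2% of the count of rno-miR-133a-3p in every library. Its sequence is shown because it is the reverse complement of 21 bases of rno-miR-133a-3p and not of rno-miR-133b-3p.
rno-miR-133c: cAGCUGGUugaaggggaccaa
Whether strand was used in counting is not stated by any source used here, and the counts of rno-miR-133c and rno-miR-133a-3p cannot be told apart. No other entry shared its counts with rno-miR-206-3p, rno-miR-133b-3p or rno-miR-133b-5p over the 18 libraries, within 10% or 2 counts in every library.

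The ratios between the arms rest on the few 5p counts. For miR-133b the mean log2 ratio of 3p to 5p differed by -0.54 in old AL against young AL (exact permutation p = 0.513), by 0.35 in old CR against young AL (exact permutation p = 0.706) and by 0.89 in old CR against old AL (exact permutation p = 0.273). The second difference turned negative without young AL replicate 4 (-0.20) or old CR replicate 18 (-0.11). For miR-206, with 0 or 1 count on the 5p strand of each library, the corresponding differences of -0.21, -0.15 and 0.06 depend on the 0.5 counts added before taking logs and say nothing about the arms beyond the depth on the 3p strand.

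Within the groups, rno-miR-206-3p varied more between rats than most miRNAs. The pooled within-group SD of its log2 CPM was 0.702, higher than that of 280 of the 321 known entries with a mean of at least 1 CPM, whose median SD was 0.409. Its SD was 0.563 for young AL, 0.711 for old AL and 0.810 for old CR. rno-miR-133b-3p, with an SD of 0.401, was close to the median of all entries. The slow-fibre miRNAs rno-miR-499-5p, encoded in an intron of the myosin gene Myh7b, and rno-miR-208b-3p, encoded in the slow myosin gene Myh7, varied still more, with SDs of 0.971 and 1.25.

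Over the 18 libraries the known entry whose log2 CPM was most like that of rno-miR-206-3p was rno-miR-499-5p, with a Spearman rho of 0.767 (Pearson r 0.875), against a median rho of 0.0227 over the 320 entries ranked. These correlations are descriptions, since the points share the library, its depth and its TMM factor and come from 3 groups. Without the 2 libraries farthest from the median of rno-miR-206-3p, old AL replicate 7 and old CR replicate 18, r was 0.820 and rho 0.668. With library totals in place of TMM the rho was 0.845. Within young AL, old AL and old CR taken separately the rho was 0.886, 0.829 and 0.829 (6 libraries each). rno-miR-499-5p was at 123 to 689 CPM in the young libraries, 116 to 1109 CPM in old AL and 105 to 499 CPM in old CR, with the highest value of each group in replicates 4, 7 and 13, as for rno-miR-206-3p. rno-miR-208b-3p also had the highest value of each group in these 3 libraries, 60.3, 30.5 and 16.1 CPM against at most 13.4, 6.06 and 8.07 CPM in the others of the respective group, and stood at rank 13 of likeness (rho 0.457, r 0.689). The level of rno-miR-206-3p was 16.2 to 51.9 times that of rno-miR-499-5p in the 18 libraries, with a median of 32.2 for young AL, 30.1 for old AL and 32.5 for old CR. How the muscle was sampled along its length and the share of slow fibres in each sample were not measured in these files, and their part in this pattern was not tested.

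The next 4 entries in likeness to rno-miR-206-3p were rno-miR-24-3p (rho 0.713), which is made with miR-23 and miR-27 and is described in myoblast differentiation, rno-miR-125b-5p and rno-miR-3588 (rho 0.597 for both, which share their counts) and rno-miR-128-3p (rho 0.571). rno-miR-128-3p is also 1 of the 5 nerve markers, whose summed level was 564 to 1012 CPM in the young libraries, 410 to 758 CPM in old AL and 333 to 729 CPM in old CR, and its part in the likeness was not tested. rno-miR-21-5p, a miRNA of injured and fibrotic tissue, stood at a rho of -0.434, which was -0.112 with library totals. Within old AL its rho turned from -0.714 to 0.600 with that scaling.

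The 2 main strands of the cluster showed little likeness to each other. The rho of rno-miR-206-3p with rno-miR-133b-3p was -0.152 (r -0.114) over the 18 libraries, at rank 216 of 320, and 0.189 with library totals in place of TMM. Within young AL, old AL and old CR it was -0.886, -0.200 and 0.429 (6 libraries each), and with library totals -0.314, 0.771 and 0.257, so that the sign in old AL depended on the scaling. rno-miR-133b-3p was instead most like rno-miR-133c (rho 0.944) and rno-miR-133a-3p (rho 0.940, r 0.937), the entries of nearly the same sequence or its complement. Next came rno-miR-324-3p (rho 0.882), rno-miR-874-3p (rho 0.860) and rno-miR-664-3p (rho 0.810). With rno-miR-499-5p its rho was -0.243, and 0.152 with library totals.

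**Figure D4:**
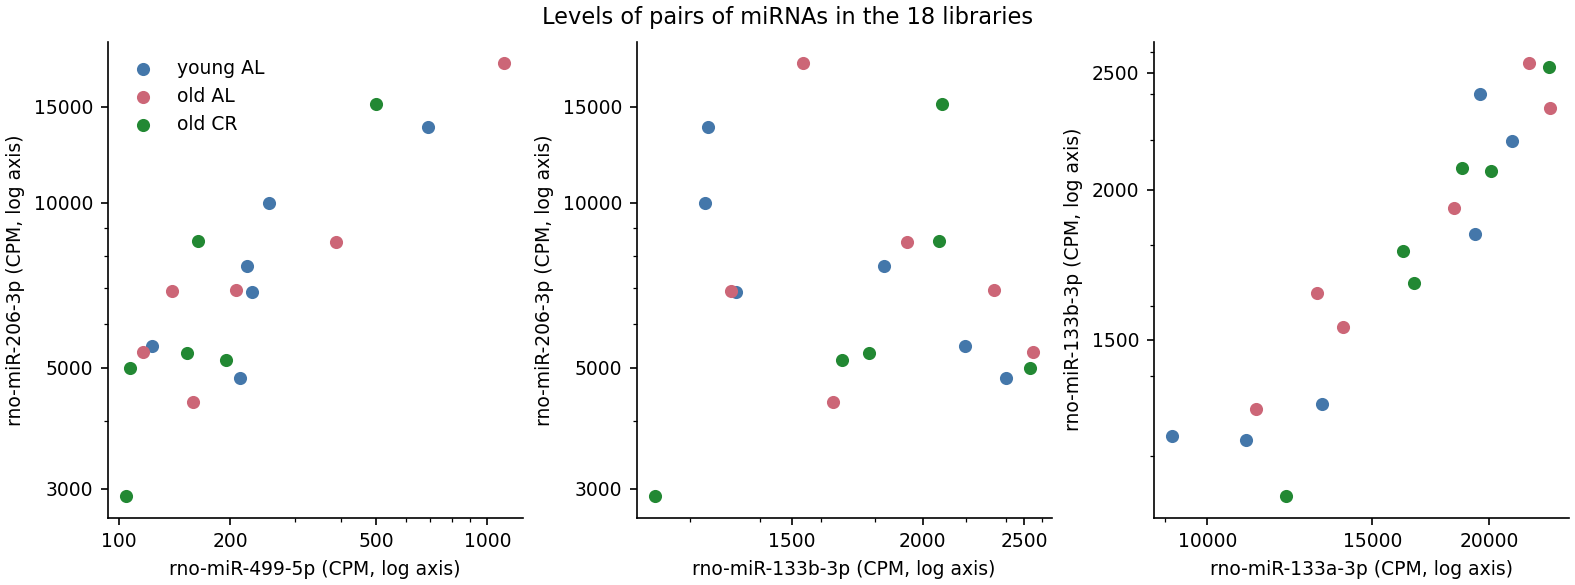
Levels of pairs of miRNAs in the 18 libraries, in CPM on log axes, coloured by group: rno-miR-206-3p against rno-miR-499-5p (left), rno-miR-206-3p against rno-miR-133b-3p (middle) and rno-miR-133b-3p against rno-miR-133a-3p (right). Points lie along a rising line in the left and right panels (Spearman rho 0.767 and 0.940) and are scattered in the middle panel (rho -0.152).

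The other miRNAs of striated muscle gave no call in the group comparisons either. Of 13 listed entries outside the cluster, 11 were tested, and the 2 strands of miR-208a, the miRNA of the heart myosin gene Myh6, had too few counts. edgeR called 0 of the 11 in each of the 3 comparisons. Over all entries edgeR called 3.28% (old AL against young AL), 9.32% (old CR against young AL) and 0.272% (old CR against old AL). At an unadjusted p under 0.05 there were 0 of 11 (in the same order, 23.4%, 25.5% and 12% of all entries). DESeq2 called 0 (12.2%, 15.8% and 2.73% of all entries). The number with a log2 fold change above 0 was 7, 7 and 5 of 11 in the same order (56.6%, 55.8% and 50.7% of all entries). Their median log2 fold changes were 0.12, 0.19 and -0.13, beside 0.06, 0.08 and 0.0069 over all entries tested. For the slow-fibre miRNAs the old CR against young AL values were -0.51 (SE 0.472, adjusted p = 0.579) for rno-miR-499-5p and -1.27 (SE 0.678, adjusted p = 0.262) for rno-miR-208b-3p. In young AL, old AL and old CR the median levels were 225, 183 and 158 CPM for rno-miR-499-5p. Those of rno-miR-208b-3p were 7.85, 4.44 and 5.76 CPM in the same order. The mean of rno-miR-208b-3p was 16.9 CPM in young AL, where replicate 4 was at 60.3 CPM, 8.24 CPM in old AL and 7.04 CPM in old CR.

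A list of 24 further miRNAs described in satellite cells, regenerating or denervated muscle gave 1 call in each comparison with young AL. The called entry was rno-miR-31a-5p, which is expressed in satellite cells, where it holds back Myf5. It had 1 to 7 counts per young library, 12 to 104 in old AL and 31 to 309 in old CR. It was upregulated in old AL (log2 fold change 3.56, SE 0.543, edgeR adjusted p = 0.00383) and in old CR (4.62, SE 0.749, edgeR adjusted p = 0.00377), and all old libraries exceeded all young ones. rno-miR-489-3p, a miRNA of quiescent satellite cells, also had no overlap between old AL and young AL, in the opposite direction. With TMM scaling over the 12 libraries compared, its mean level was 0.0301 CPM in old AL and 0.130 CPM in young AL (log2 fold change -1.97, SE 0.628, edgeR adjusted p = 0.105). It was not called, and its old AL mean lay within the 0.0286 to 0.0898 CPM that correspond to 3 counts with scaling over the 18 libraries. The separation thus rests on few counts. Of the 23 entries tested in old AL against young AL, 1 rose and 0 fell (3.28% of all entries called), 7 had an unadjusted p under 0.05 (23.4% of all entries), DESeq2 called 5 (12.2%) and 2 were without overlap (3.55%). Of the 24 tested in old CR against young AL, 1 rose and 0 fell (9.32% of all entries called), 4 had an unadjusted p under 0.05 (25.5%), DESeq2 called 2 (15.8%) and 1 was without overlap (5.75%). In old CR against old AL all of these counts were 0 of 24. Over all entries the shares there were 0.272% called by edgeR, 12% at an unadjusted p under 0.05, 2.73% called by DESeq2 and 0.543% without overlap. The median log2 fold changes of the list were 0.17, 0.20 and 0.02. The rho of rno-miR-31a-5p with rno-miR-206-3p over the 18 libraries was -0.212, a description only.

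Markers of other tissues were called where the cluster was not. When old CR was set against young AL, 3 of 5 nerve markers were called (rno-miR-9a-5p, rno-miR-9a-3p and rno-miR-124-3p), all higher in old CR. Both liver markers (rno-miR-122-5p and rno-miR-122-3p) were also called and higher in old CR. Of all entries 9.32% were called, and 4.11% were called as higher in old CR. The called markers include both arms of miR-9a and both arms of miR-122. The most abundant nerve marker, rno-miR-128-3p, had the opposite sign (log2 fold change -0.46, edgeR adjusted p = 0.203). With TMM scaling over the 12 libraries compared, it was at 505 CPM in old CR and 696 CPM in young AL. The summed level of the 5 nerve markers, scaled over the 18 libraries, had a lower median in old CR (635 CPM) than in young AL (682 CPM). In the other 2 comparisons edgeR called 0 of these 7 markers. Of all entries it called 3.28% in old AL against young AL and 0.272% in old CR against old AL. At an unadjusted p under 0.05 there were 4 nerve and 2 liver markers in old AL against young AL (23.4% of all entries). In old CR against old AL there were 3 nerve markers (12% of all entries). DESeq2 called 1 nerve and 2 liver markers in the former (12.2% of all entries) and 2 nerve markers in the latter (2.73%). The 4 nerve markers of the former went both ways, with log2 fold changes of 0.77 for rno-miR-9a-5p, 0.95 for rno-miR-9a-3p and 1.41 for rno-miR-124-3p, and of -0.56 for rno-miR-128-3p. The liver markers summed to 0.570 to 38.7 CPM in the young libraries, 49.2 to 777 CPM in old AL and 102 to 187 CPM in old CR. No marker of leukocytes, erythroid cells, vessels or fibroblasts was called by edgeR in any comparison. At an unadjusted p under 0.05, old AL against young AL gave 2 of 5 leukocyte and 1 of 3 erythroid markers (all entries, 23.4%). Old CR against old AL gave 1 of 3 erythroid markers (all entries, 12%). DESeq2 called 1 of these markers, an erythroid one in old AL against young AL (all entries, 12.2%). The part of these tissues in the levels of the cluster was not tested.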

How the data were processed

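Per the labels and the methods of the study, the authors sequenced small RNA of gastrocnemius muscle from 18 rats, trimmed adapters (Cutadapt 1.2.1 in the submitters' processing notes, which also name Bowtie2 2.4.0 and Rnor_6.0) and low-quality ends, identified known miRNAs and predicted candidates with miRDeep2, and deposited raw counts for 763 known and 146 predicted entries. How multiply matching reads were treated is not given in the sources used here, and 0 columns were left unused.

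The 12 libraries of each pair of groups were compared with edgeR 4.0.16 (R 4.3.3; TMM, robust quasi-likelihood test), for entries with at least 10 counts in total, with Benjamini-Hochberg adjustment over all of them. DESeq2 1.42.0 was an alternative, and the scripts were tested on simulated counts. The SE is the log2 fold change divided by the square root of the F statistic. Logs of levels and ratios used a prior count of 0.5. Ratios were compared with two-sided exact permutation tests over 924 arrangements, adjusted over 15 tests. Replicates of a group differed far beyond counting error (lowest chi-square divided by its degrees of freedom 1214 over 45 pairs), and the Spearman correlation between them was 0.800 to 0.904.

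The members, lists and alternatives were chosen with earlier results of these data known. The entries named are the members, their sequence relatives, the called entries of the 2 lists and the 5 known entries most like each 3p strand over the 18 libraries. rno-miR-208b-3p, rno-miR-21-5p and the markers named were taken from those lists, and rno-miR-489-3p was named after its values were seen.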

Additional observations from a re-analysis of the deposited data

Results flagged for a closer look

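Of 21 sets of 6 libraries examined (the levels and ratios of the members in each group), 1 held a library far from the others, and chance alone gives about 1 such set in 20. This was the log2 ratio of rno-miR-206-3p to rno-miR-1-3p in old AL, which was -0.998 in replicate 7 and -4.15 to -3.48 in the other 5 libraries. The gap to the nearest library was 0.786 of the whole range of the group. The same library had the highest TMM factor of the series (2.14), the lowest share of miR-1 family counts (60.7%) and the highest levels of rno-miR-206-3p and rno-miR-499-5p. The part of these properties in the ratio was not tested.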

How the results depend on the processing

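Over 24 results of the members and their ratios, 458 alternatives left 410 with the same direction and none past the threshold, with a lowest adjusted p of 0.263, and 48 turned a direction. The cause was not tested for any of them.

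In old AL against young AL, rno-miR-206-3p turned to -0.0093 with filterByExpr, -0.12 without young AL replicates 1 and 2, whose library numbers stand apart, and -0.35 without old AL replicates 7 and 11, which have the extreme TMM factors. rno-miR-133b-5p turned to -0.21 and -0.24 without the same pairs. In old CR against young AL, rno-miR-133b-3p turned to -0.031 with library totals. In old CR against old AL it turned to 0.0085 with DESeq2 and 0.0085 with RLE factors, and rno-miR-206-3p to 0.16 without old AL replicates 7 and 11. With library totals, rno-miR-206-3p had its most negative value in that comparison (-0.85, from -0.24), as did rno-miR-133b-5p (-1.42, from -0.58). With a prior count of 5 the 3p to 5p ratio of miR-206 turned to 0.23 in old AL against young AL and -0.38 in old CR against old AL, and that of miR-133b to 0.059 in old AL against young AL. As differences of medians, these ratios turned to -0.12 for miR-206 in old CR against old AL and -0.70 for miR-133b in old CR against young AL. Without young AL replicates 1 and 2, the old AL against young AL differences turned to 0.074 for the arms of miR-133b and -0.047 for rno-miR-133b-3p to rno-miR-133a-3p. Without old AL replicates 7 and 11, rno-miR-206-3p to rno-miR-1-3p turned to -0.10 in old AL against young AL, and rno-miR-206-3p to rno-miR-133b-3p to 0.20 in old CR against old AL.

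With 1 library left out at a time, the log2 fold change of rno-miR-206-3p ranged from -0.35 to 0.23 in old AL against young AL, -0.59 to 0.011 in old CR against young AL and -0.62 to 0.13 in old CR against old AL. That of rno-miR-133b-3p ranged from 0.02 to 0.25, 0.03 to 0.26 and -0.11 to 0.11, and that of rno-miR-133b-5p from -0.39 to 0.96, -0.84 to 0.42 and -1.12 to 0.068. The differences of ratios that changed sign ranged from -0.030 to 0.073 (rno-miR-133b-3p to rno-miR-133a-3p), -0.49 to 0.066 (rno-miR-206-3p to rno-miR-133b-3p) and -0.18 to 0.45 (rno-miR-206-3p to rno-miR-1-3p) in old AL against young AL. They ranged from -0.20 to 0.66 (arms of miR-133b) and -0.42 to 0.0079 (arms of miR-206) in old CR against young AL, and from -0.49 to 0.035 (rno-miR-206-3p to rno-miR-133b-3p) and -0.17 to 0.23 (arms of miR-206) in old CR against old AL.

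The number of entries called over the whole table, 24 in old AL against young AL, was 84 with DESeq2, 0 with library totals, 13 with library totals without the miR-1 family, 37 with filterByExpr, 6 with shared entries counted once, 53 for known miRNAs only, 15 without old AL replicates 7 and 11, and 9 to 20 with 1 library left out. In old CR against young AL 68 became 109 with DESeq2 and 45 to 67 with 1 library left out. In old CR against old AL 2 became 19 with DESeq2, 0 to 3 with 1 library left out, and 0 with upper-quartile factors, library totals, library totals without the miR-1 family, no robust estimation, shared entries counted once, known miRNAs only, or without old AL replicates 7 and 11.

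No paired analysis was possible because the replicate numbers 1 to 18 are all distinct and the groups share none. rno-miR-206-5p, with 2 counts, could not be tested under any alternative. The labels name no sequencing batch, and p-values measure the spread between rats of 1 strain and sex.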

Other observations

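A candidate predicted by the authors had counts in 2 libraries only, 132163 in old AL replicate 8 and 129909 in old CR replicate 14, close to the counts of rno-miR-133b-3p in the same libraries (137336 and 136307). It was at 0 in the other 16 libraries, all of which held rno-miR-133b-3p. It was singled out after its values were seen, and its sequence and position were not used here.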
